A study of Mus musculus with 4 samples.

Results

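Clotting and fibrinolysis genes were examined in RNA sequencing counts from 4 mouse livers. The set was a list of 40 genes: clotting factors, their inhibitors, the proteins that dissolve fibrin, receptors for clotting proteases, and the enzymes and cargo receptors that clotting factors need before secretion. Members were found by symbol, and all 40 were among the 21959 gene IDs of the deposited table. Enough reads for a test were present for 37 of them, out of 12657 genes tested in all, and F2rl1, Serpina5 and Vkorc1 were too low. The livers came from wild-type (WT) mice in a model of acute-on-chronic liver failure (ACLF), in which an acute insult strikes a chronically injured liver. Of these, 2 were from mice given saline (saline 1 and 2) and 2 from mice given baicalein, a plant flavone (baicalein 1 and 2). All 4 thus carried the same disease model, and no healthy liver was analysed here. The labels give no sex, age, dose or time of collection. Nor do they state that each liver came from a separate animal, so each p-value reflects the spread of these samples alone, part of which may be technical.

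Hepatocytes make most plasma clotting factors. In the tissue factor (extrinsic) pathway, tissue factor binds factor VII. In the contact and intrinsic pathway, factor XII, prekallikrein and kininogen feed factors XI, IX and VIII. Both routes meet at factors X and V, which produce thrombin, and thrombin turns fibrinogen into fibrin. Antithrombin and the protein C system restrain these steps, and plasmin breaks fibrin down. Loss of clotting factor synthesis is a textbook feature of liver failure.

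Total counts ran from 13976440 to 18731616 per liver, and 14409 to 15530 genes had at least 1 count. The livers differed in ways beyond their labels. The Y-linked genes Ddx3y, Kdm5d, Eif2s3y and Uty had 820 and 836 counts in the saline livers against 2 and 1 in the baicalein livers. Of 14 male-biased liver genes 13 were lower with baicalein, and of 15 female-biased genes 15 were higher. Sex and treatment therefore cannot be told apart in any comparison below. Of 15 circadian clock genes 9 were higher and 4 lower (86.7%, beside 15.5% of all tested genes). The groups thus also differed in clock phase markers. The 18 skeletal muscle genes summed to 7212 CPM (counts scaled to library size) in saline 1 and 2504 CPM in baicalein 2, against 10.1 CPM in each of the other livers, where Ckm, Myl1 and Pvalb were at 0. Fits without each of these livers stand beside the results they changed. The liver label itself held: Alb, encoding albumin, was at 53157 to 87778 CPM in the 4 livers.

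Clotting genes passed the test between the groups in both directions. With baicalein, 2 members were higher (F7 and Kng2) and 2 lower (F2r and F11) at an adjusted p below 0.05 (edgeR's quasi-likelihood test, Benjamini-Hochberg over all tested genes). The other 33 tested members did not pass. That is 10.8% of the members, where 15.5% of all tested genes were called, 7.65% as higher and 7.9% as lower. At an unadjusted p below 0.05 there were 9 members (24.3%), where 29.4% of all tested genes were. DESeq2 called 8 members (21.6%), where it called 14.7% of all genes, so whether the members' share lay below or above that of all genes depended on the tool. With limma-voom 10.8% of members and 15.9% of all genes were called. The median log2 fold change of the members was 0.04, and that of all tested genes was 0.01. In size, 27 of 37 members (73.0%) changed by less than 0.3 on the log2 scale, compared with 55.4% of all genes. For 24 members (64.9%) the 95% interval lay within a 1.5-fold change in either direction, compared with 42.7% of all genes. Neither comparison was matched for level (FPKM, reads over gene length and library total). At or above 10 FPKM, 23 of 27 tested members lay within that limit, and below 10 FPKM 1 of 10. The groups did not overlap for 16 members (43.2%), 9 of them higher and 7 lower with baicalein. The share for all genes was 59.2%, with 29.7% higher and 29.5% lower.

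**Figure D1:**
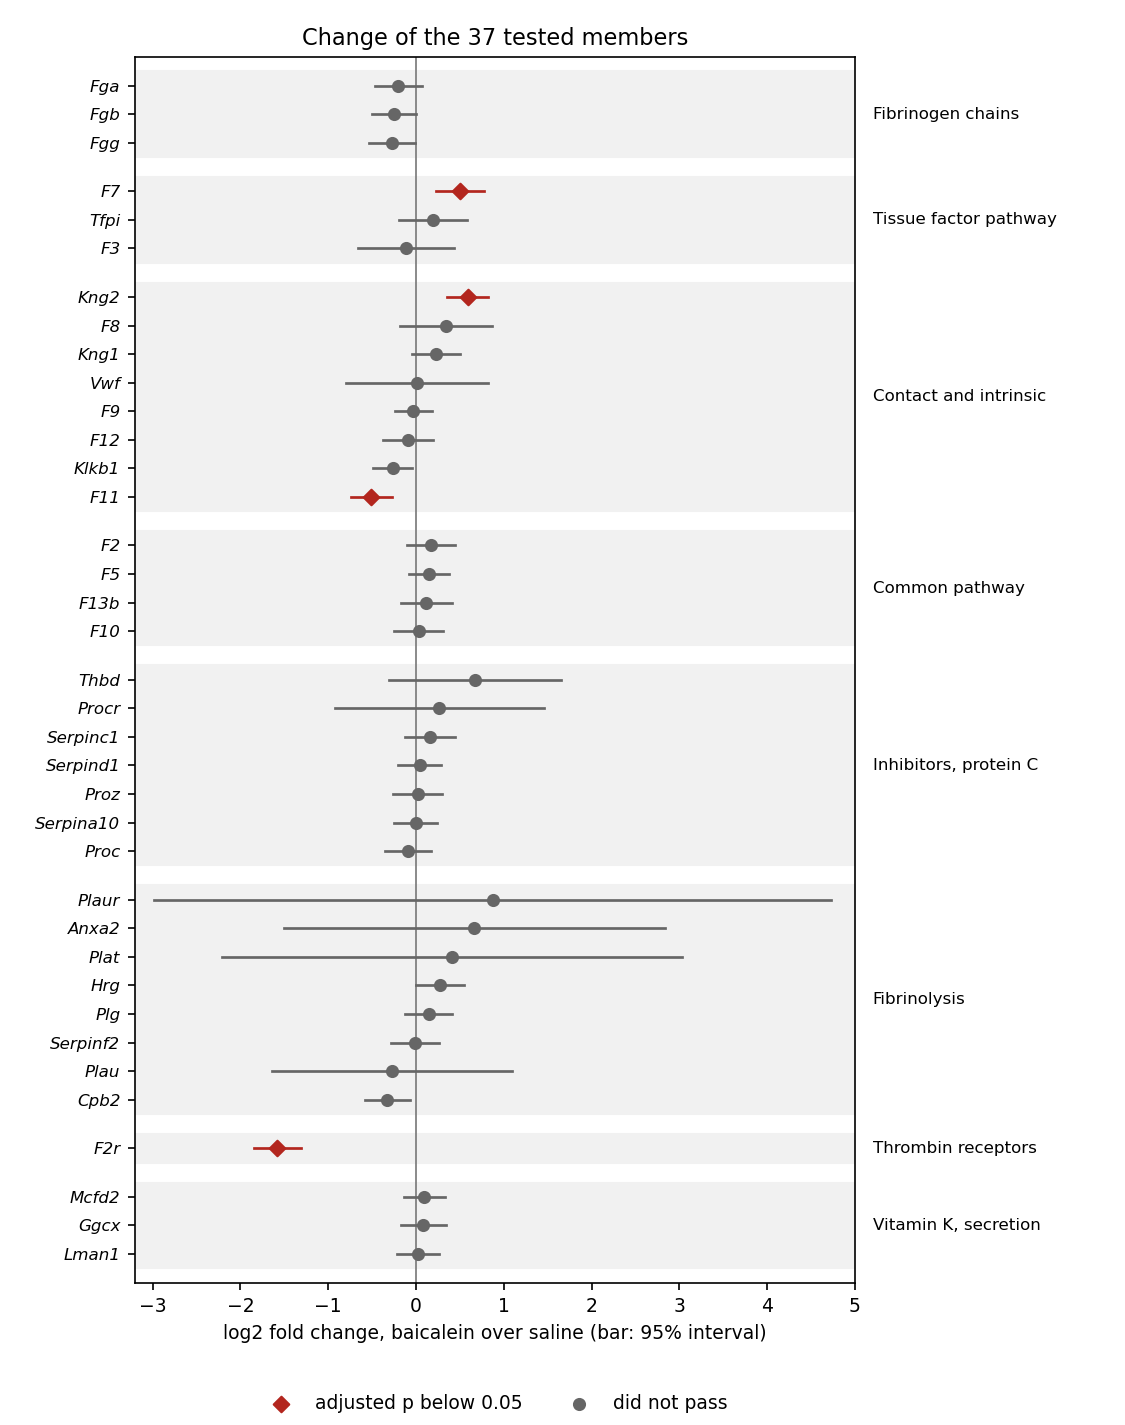
log2 fold change of each tested member, baicalein over saline, with its 95% interval, grouped by role. Red diamonds mark the 4 members at adjusted p below 0.05; F2r stands farthest from 0 among them at -1.58, and the widest intervals are those of Plaur, Plat and Anxa2.

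Levels of the 40 genes spanned several orders of magnitude. On the deposited FPKM scale, which divides reads by gene length and library total, the fibrinogen chains stood highest, with means over the 4 livers of 2265 FPKM for Fga, 1251 FPKM for Fgg and 1233 FPKM for Fgb. Next came Kng1 at 887 FPKM, Plg at 754 FPKM and Hrg at 636 FPKM. Together the 40 genes took 3.23% to 3.49% of all counts in a liver. At or above 10 FPKM were 27 members, and all but F2r of these are proteins that hepatocytes secrete or the machinery for secreting them. The 13 below 10 FPKM included F3, Thbd, Vwf, Procr, Plat, Plau and Plaur, which act on endothelial, immune or other cell surfaces or are made by such cells, and F8 at 0.559 FPKM. Factor V was far above its homologue factor VIII, with FPKM ratios of F5 to F8 from 159 to 194.

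**Figure D2:**
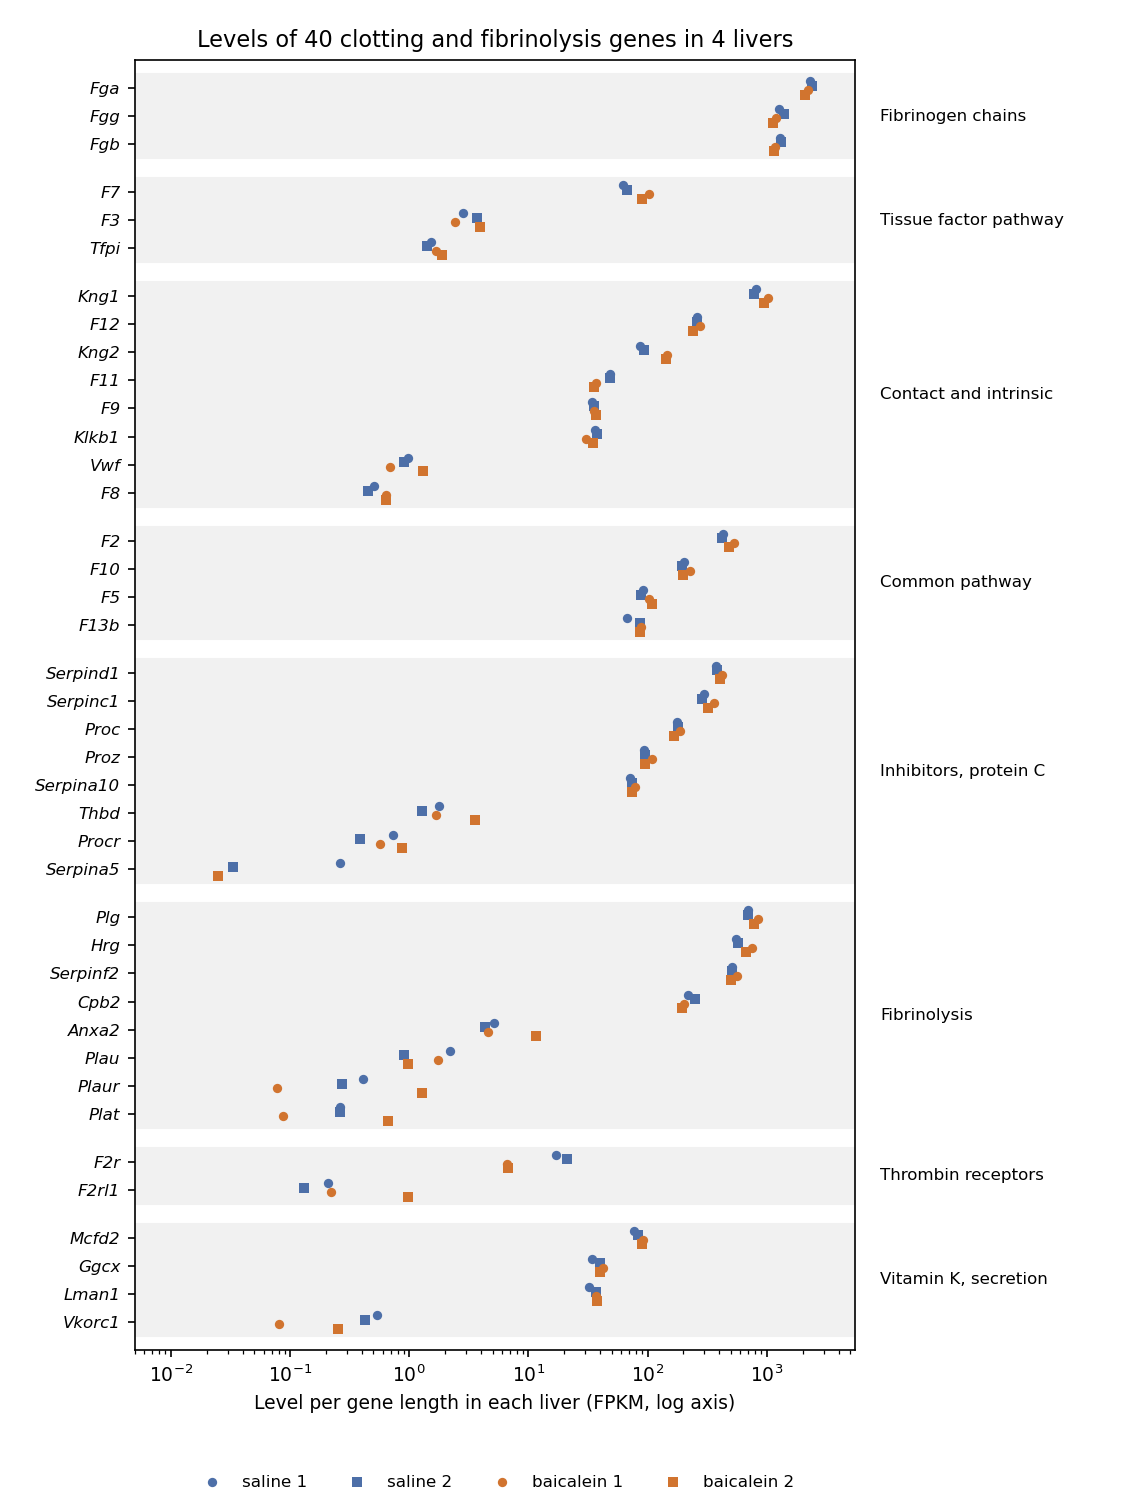
Level of each of the 40 members in each liver, in FPKM on a log axis, grouped by role. Blue is saline and orange is baicalein, circles are replicate 1 and squares replicate 2; Serpina5 in baicalein 1 was at 0 and is not drawn. Members made by hepatocytes lie to the right and close together, and Plaur, Plat and F2rl1 to the left with baicalein 2 apart from baicalein 1.

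Fibrinogen, the substrate of thrombin, is built from 3 chains encoded by neighbouring genes on chromosome 3. In the deposited coordinates Fgg lies at 82915031 to 82922356, Fga at 82933383 to 82940934 and Fgb at 82947448 to 82957170, and the table lists no gene between them. Fga was at 7211 and 7416 CPM in saline 1 and 2 and at 6806 and 5935 CPM in baicalein 1 and 2. Fgb was at 5136 and 5121 CPM with saline and 4497 and 4107 CPM with baicalein. Fgg was at 2759 and 2996 CPM with saline and 2538 and 2227 CPM with baicalein. For each chain both baicalein livers lay below both saline livers, as they did for 29.5% of all tested genes. Yet 0 of 3 passed with edgeR (2 at an unadjusted p below 0.05, 2 with DESeq2 and 0 with limma-voom). The log2 fold changes were -0.20 for Fga (SE 0.12, adjusted p = 0.307), -0.25 for Fgb (SE 0.11, adjusted p = 0.166) and -0.27 for Fgg (SE 0.12, adjusted p = 0.159). Fgb and Fgg were the chains that passed with DESeq2 (adjusted p = 0.0114 and 0.0401). All 3 passed without baicalein 1 (adjusted p = 0.0304, 0.0268 and 0.0388), and none without baicalein 2, where the log2 fold changes of Fga, Fgb and Fgg were -0.10, -0.19 and -0.18 (adjusted p = 0.402, 0.138 and 0.246). In saline 2 and baicalein 1, the livers with few muscle reads, the log2 ratios were -0.12 for Fga, -0.19 for Fgb and -0.24 for Fgg.

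The chains kept a similar balance in all livers. Together they took 1.45% and 1.52% of all counts with saline and 1.36% and 1.31% with baicalein. On the FPKM scale Fga stood above Fgb by a ratio of 1.78 to 1.92 and above Fgg by 1.72 to 1.86. Fgb to Fgg stayed between 0.939 and 1.02. Fibrinogen is also an acute phase protein, raised by interleukin 6. Of 22 genes of that response 8 were higher and 5 lower with baicalein, so the list held calls in both directions. That is a share of 59.1%, beside 15.5% of all tested genes. Saa1, a serum amyloid A gene, fell (log2 fold change -2.12, SE 0.12, adjusted p = 9.89e-06), whereas C3, a complement gene, rose (0.66, SE 0.12, adjusted p = 0.00656).

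Promoter sequences are shown for the fibrinogen chains because the 3 genes lie side by side and each had both baicalein values below both saline values. Each is the 250 bases before the gene's start from RefSeq (GRCm38.p6), which had an entry for 30 of the 40 members. The submitters' processing notes name mm10. Yet 0 of the 40 members had the same start and end in the deposited table as in an mm10 annotation. The build of the table's positions is therefore uncertain, and the promoter positions are not to be set against them. Capitals mark matches, on either strand, to GTTAAT (a core of the HNF1 site), CAAAGTCCA (HNF4), TTGCNNAA (C/EBP), CTGGGAA (an interleukin 6 response element), TTCNNNGAA (STAT) or CACGTG (E-box).
Fgg (chr3:83007474-83007723, plus strand): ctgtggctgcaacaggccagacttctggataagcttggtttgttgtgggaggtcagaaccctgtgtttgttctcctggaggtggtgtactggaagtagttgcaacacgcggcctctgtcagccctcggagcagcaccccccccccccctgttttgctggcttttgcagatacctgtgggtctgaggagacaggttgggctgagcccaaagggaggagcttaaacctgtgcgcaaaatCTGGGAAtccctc
Fga (chr3:83025903-83026152, plus strand): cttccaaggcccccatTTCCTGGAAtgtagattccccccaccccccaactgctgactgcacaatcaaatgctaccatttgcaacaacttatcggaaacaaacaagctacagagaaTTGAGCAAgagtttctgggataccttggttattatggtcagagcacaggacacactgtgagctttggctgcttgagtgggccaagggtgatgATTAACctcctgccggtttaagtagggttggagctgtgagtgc
Fgb (chr3:83049864-83050113, minus strand): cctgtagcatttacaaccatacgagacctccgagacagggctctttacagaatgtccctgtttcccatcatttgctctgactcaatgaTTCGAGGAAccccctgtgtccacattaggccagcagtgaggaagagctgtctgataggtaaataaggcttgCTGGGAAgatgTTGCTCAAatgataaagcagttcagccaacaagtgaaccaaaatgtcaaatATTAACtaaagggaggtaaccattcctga
Fgb held 4 of the 6 motifs, with GTTAAT at -29 to -24, TTGCNNAA at -80 to -73, CTGGGAA at -91 to -85 and TTCNNNGAA at -162 to -154 from the start. Fga held GTTAAT at -43 to -38, TTGCNNAA at -135 to -128 and TTCNNNGAA at -234 to -226. Fgg held CTGGGAA alone, at -13 to -7. Among all 32851 promoter windows of this length, 6.43% hold GTTAAT, 9.56% TTGCNNAA, 9.1% CTGGGAA, 7.02% TTCNNNGAA, 6.02% CACGTG and 0.384% CAAAGTCCA. Of the 30 members with an entry, 4 hold GTTAAT, 11 TTGCNNAA, 4 CTGGGAA, 3 TTCNNNGAA, 1 CACGTG and 0 CAAAGTCCA. These matches describe letters and show no binding.

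F7 was higher with baicalein. It encodes factor VII, the vitamin K-dependent protease that tissue factor switches on. F7 (ENSMUSG00000031443, chromosome 8, 13076034 to 13085809 in the table) was at 121 and 127 CPM in the saline livers and 194 and 157 CPM in the baicalein livers. Both baicalein livers were above both saline livers, with baicalein 1 the highest. The means were 124 ± 4.80 and 176 ± 25.7 CPM (SD, n = 2 each), which gives a log2 fold change of 0.50 with SE 0.12 (adjusted p = 0.0234 with edgeR's quasi-likelihood test). The call was lost without saline 1 (adjusted p = 0.172), saline 2 (0.139) or baicalein 1 (0.107), where the log2 fold change was 0.46, 0.54 and 0.33. Over 10 alternative fits (other tools, scaling and filters, a replicate block and each liver left out) its adjusted p ran from 0.00258 to 0.172. In saline 2 and baicalein 1 alone the log2 ratio was 0.60.

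F7 is followed on the chromosome by F10 and Proz, with gaps of 1498 and 4237 bases. F10 encodes factor X, the target of factor VII. Its values were 568 and 546 CPM with saline and 629 and 508 CPM with baicalein, which overlap. Proz, encoding protein Z, a cofactor in the inhibition of factor X, was at 542 and 543 CPM and at 611 and 489 CPM, which overlap too. Their log2 fold changes were 0.03 (95% interval -0.25 to 0.31) and 0.02 (-0.26 to 0.30). The FPKM ratio of F7 to F10 was 0.312 and 0.343 in the saline livers and 0.452 and 0.455 in the baicalein livers. Tissue factor (F3) itself was low, at 7.41, 9.48, 6.26 and 9.33 CPM in saline 1, saline 2, baicalein 1 and baicalein 2. Tfpi, the inhibitor of the tissue factor complex, was at 8.64, 7.88, 9.21 and 9.63 CPM in the same order. Neither passed (adjusted p = 0.816 and 0.515), and the saline and baicalein livers overlapped for F3 but not for Tfpi.

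F11 was lower with baicalein. It encodes factor XI, the intrinsic pathway protease that activates factor IX. F11 (ENSMUSG00000031645, chromosome 8, 45694211 to 45715068) was at 112 and 111 CPM with saline and 83.5 and 73.7 CPM with baicalein, with no overlap. The means were 112 ± 0.977 and 78.6 ± 6.92 CPM (SD, n = 2 each), which gives a log2 fold change of -0.51 with SE 0.10 (adjusted p = 0.0108 with edgeR's quasi-likelihood test). The call was lost without saline 1 (adjusted p = 0.0548), saline 2 (0.0632) or baicalein 2 (0.0709). The log2 fold change in those fits was -0.51, -0.52 and -0.42, and -0.61 without baicalein 1. Over these 10 alternative fits the adjusted p ran from 0.000306 to 0.0709.

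Klkb1 lies 4657 bases beyond F11 on the same strand and encodes prekallikrein, a paralogue of factor XI. It was at 198 and 200 CPM with saline and 161 and 170 CPM with baicalein, again with no overlap, but did not pass (log2 fold change -0.27, SE 0.10, adjusted p = 0.101). It passed with DESeq2 (adjusted p = 0.0201). Transcripts of Klkb1 share 42.7% of their 50-base words with Gm45753, a gene the table lists over the same region with 1 count in all. How reads that fit both were counted is not stated, so the listed counts of Klkb1 are uncertain to that extent. F12, whose product cleaves prekallikrein, was at 526 and 520 CPM with saline and 547 and 436 CPM with baicalein. F9 was at 96.9 and 99.6 CPM with saline and 98.9 and 93.5 CPM with baicalein. Both overlapped between groups, and the interval of F9 (-0.24 to 0.18) was the narrower.

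The kininogen genes and Hrg, neighbours on chromosome 16, were each higher in both baicalein livers than in either saline liver, and Kng2 passed. Of all tested genes 29.7% were likewise higher without overlap. Kininogens are cofactors of the contact pathway and the source of bradykinin, and mice carry a pair of such genes. Kng2 (ENSMUSG00000060459, 22804604 to 22848232) was at 247 and 261 CPM with saline and 400 and 365 CPM with baicalein, with no overlap. The means were 254 ± 9.44 and 383 ± 24.7 CPM (SD, n = 2 each), which gives a log2 fold change of 0.59 with SE 0.10 (adjusted p = 0.00534 with edgeR's quasi-likelihood test). The call was lost without saline 1 or saline 2 (adjusted p = 0.107 and 0.104), with log2 fold changes of 0.55 and 0.62. Its adjusted p over these 10 alternative fits ran from 6.57e-09 to 0.107.

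Kng1 was at 2729 and 2579 CPM with saline and 3366 and 2856 CPM with baicalein (log2 fold change 0.23 with SE 0.12, adjusted p = 0.243). Hrg, encoding histidine-rich glycoprotein, which binds plasminogen and heparin, was at 1135 and 1160 CPM with saline and 1520 and 1256 CPM with baicalein (0.27, SE 0.12, adjusted p = 0.168). Neither overlapped and neither passed, though both did without baicalein 2 (adjusted p = 0.0307 and 0.0196). Without baicalein 1 their log2 fold changes were 0.09 and 0.12 (adjusted p = 0.473 and 0.381). The FPKM ratio of Kng1 to Kng2 was 9.28 and 8.32 with saline and 7.07 and 6.57 with baicalein. Kng2 transcripts share 18.2% of their 50-base words with Kng1, and no source used here says how reads that fit both were counted. The split between the pair is therefore uncertain.

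**Figure D3:**
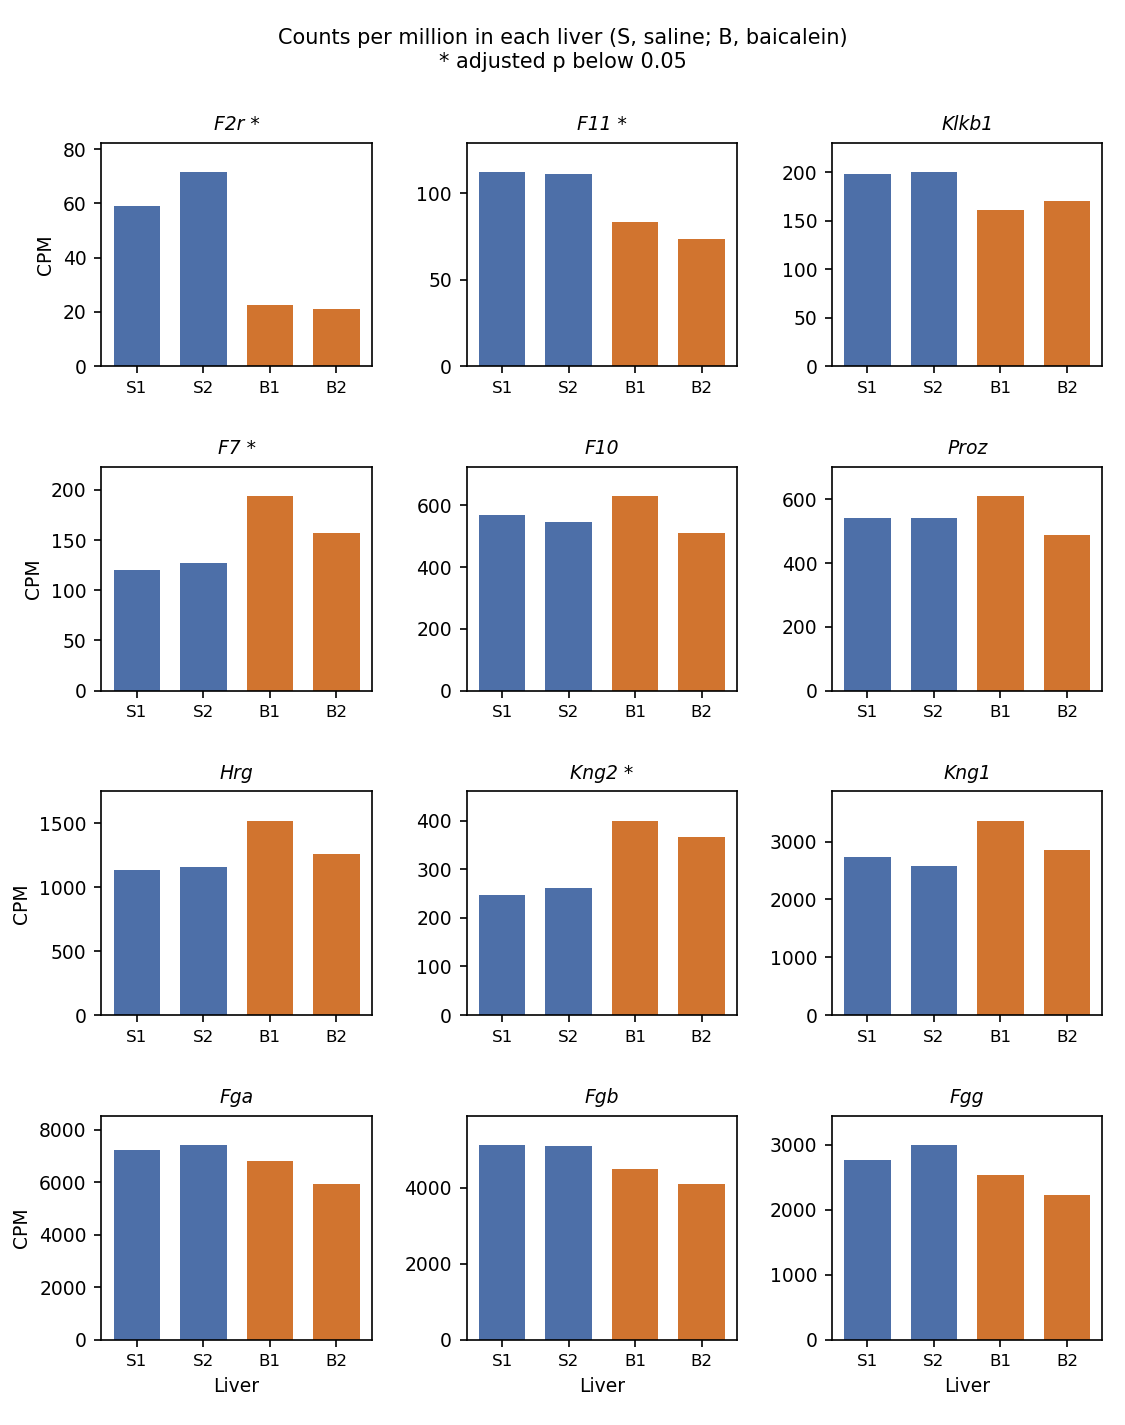
CPM in each liver for F2r and for members that lie next to each other: F11 and Klkb1, F7 with F10 and Proz, Hrg with the kininogens, and the fibrinogen chains. Bars start at 0, blue is saline (S1, S2), orange is baicalein (B1, B2), and asterisks mark adjusted p below 0.05; within the F7, F10 and Proz group F7 alone has no overlap.

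F2r had the largest change among members that passed. It encodes the receptor through which thrombin acts on cells, a G protein-coupled receptor that thrombin opens by cutting it. F2r (ENSMUSG00000048376, chromosome 13, 95738311 to 95754995) was at 58.9 and 71.7 CPM in the saline livers and 22.6 and 21.1 CPM in the baicalein livers. All baicalein values were below the saline values by a wide margin. The means were 65.3 ± 9.04 and 21.8 ± 1.03 CPM (SD, n = 2 each), which gives a log2 fold change of -1.58 with SE 0.12 (adjusted p = 5.81e-05 with edgeR's quasi-likelihood test), or 0.334 of the saline level. It passed in these 10 alternative fits, with log2 fold changes from -1.72 to -1.44 and adjusted p from 2.38e-18 to 0.00472. In saline 2 and baicalein 1 alone the log2 ratio was -1.67.

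Thrombin receptors are known from endothelial, stellate and immune cells, so marker lists of these cells are given beside F2r. In whole liver, fewer cells of a type and less RNA per cell cannot be told apart. Of 18 endothelial markers 11 were higher (61.1%, beside 7.65% of all tested genes) and 7 did not pass. Their summed level was 769 and 654 CPM with saline and 1074 and 1093 CPM with baicalein. Of 16 Kupffer cell and macrophage genes 12 were higher and 4 did not pass (746 and 667 CPM against 1266 and 1096 CPM). Of 13 stellate cell and fibroblast genes 7 were higher (53.8%) and 6 did not pass (835 and 370 CPM against 770 and 1204 CPM). That list shares Acta2 and Des with the smooth muscle list, and Des with the skeletal muscle list. Of 7 tested platelet genes 2 were higher and 1 lower (42.9%, beside 15.5% of all tested genes). Their sums were 18.6, 17.7, 30.5 and 27.5 CPM in saline 1, saline 2, baicalein 1 and baicalein 2. F2r was lower with baicalein, while all calls on the endothelial, macrophage and stellate lists were higher. The part of these cells in the F2r level was not tested. The neighbouring receptor gene F2rl1, 76575 bases away, had 10 and 5 counts with saline and 9 and 50 with baicalein and was not tested.

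Promoters of the 4 genes that passed are shown because these are the members at an adjusted p below 0.05, with source, motifs and capitals as for fibrinogen.
F7 (chr8:13025784-13026033, plus strand): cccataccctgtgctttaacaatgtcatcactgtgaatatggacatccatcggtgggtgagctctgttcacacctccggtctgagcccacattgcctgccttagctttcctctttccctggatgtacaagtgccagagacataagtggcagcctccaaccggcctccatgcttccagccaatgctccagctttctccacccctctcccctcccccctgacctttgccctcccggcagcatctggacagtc
F11 (chr8:45262032-45262281, minus strand): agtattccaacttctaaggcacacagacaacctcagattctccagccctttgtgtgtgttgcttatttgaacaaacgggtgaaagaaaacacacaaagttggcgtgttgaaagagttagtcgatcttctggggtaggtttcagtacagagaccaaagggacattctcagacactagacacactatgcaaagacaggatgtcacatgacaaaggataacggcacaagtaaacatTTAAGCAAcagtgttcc
Kng2 (chr16:23029102-23029351, minus strand): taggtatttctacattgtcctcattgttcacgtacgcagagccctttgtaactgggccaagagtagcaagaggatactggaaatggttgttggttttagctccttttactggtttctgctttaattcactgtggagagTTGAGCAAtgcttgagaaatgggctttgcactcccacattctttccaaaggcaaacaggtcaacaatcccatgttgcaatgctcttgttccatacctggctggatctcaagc
F2r (chr13:95618467-95618716, minus strand): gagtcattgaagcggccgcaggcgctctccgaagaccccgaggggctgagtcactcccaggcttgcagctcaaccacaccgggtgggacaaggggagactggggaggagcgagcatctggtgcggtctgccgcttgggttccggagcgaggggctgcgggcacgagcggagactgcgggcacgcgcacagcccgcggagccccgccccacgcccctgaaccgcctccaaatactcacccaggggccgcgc
F11 and Kng2 each held 1 match, to TTGCNNAA, at -17 to -10 and -112 to -105. No letters of the 6 motifs were found in the windows of F7 and F2r.

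No common pathway gene passed, 0 of 4 with edgeR (0 at an unadjusted p below 0.05, 0 with DESeq2 and 0 with limma-voom). F2, encoding prothrombin, was at 2040 and 1979 CPM with saline and 2459 and 2052 CPM with baicalein (log2 fold change 0.17, 95% interval -0.11 to 0.44, adjusted p = 0.408). It passed without baicalein 2 (0.29, adjusted p = 0.0489), and without baicalein 1 the log2 fold change was 0.02 (adjusted p = 0.909). F5, the cofactor of factor X, was at 703 and 670 CPM and at 772 and 751 CPM (0.15, interval -0.08 to 0.37, adjusted p = 0.364). For both genes the baicalein livers lay above the saline livers, as they did for 29.7% of all tested genes. The means of F2 and F5 were higher by 12.2% and 10.9%. For F2, baicalein 2 (2052 CPM) was close to saline 1 (2040 CPM). F8, cofactor of factor IX and made by endothelial cells, had 88 and 63 counts with saline and 94 and 118 with baicalein (0.34, interval -0.19 to 0.86, adjusted p = 0.378). F13b, the carrier subunit of the enzyme that crosslinks fibrin, overlapped between groups (178 and 222 CPM against 229 and 205 CPM).

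Of the inhibitors and the protein C system, 7 of 8 genes were tested and 0 passed with edgeR (0 at an unadjusted p below 0.05, 0 with DESeq2 and 0 with limma-voom). Serpinc1, encoding antithrombin, the main inhibitor of thrombin, was at 2622 and 2516 CPM with saline and 3148 and 2587 CPM with baicalein (log2 fold change 0.16, interval -0.12 to 0.44, adjusted p = 0.450). The groups overlapped, and Serpinc1 passed without baicalein 2 (0.30, adjusted p = 0.0467) but had a log2 fold change of -0.002 without baicalein 1 (adjusted p = 0.992). Proc, encoding protein C, was at 454 and 455 CPM with saline and 467 and 388 CPM with baicalein (-0.09, interval -0.35 to 0.17, adjusted p = 0.671). Serpind1 and Serpina10, encoding heparin cofactor and the protein Z-dependent inhibitor, had log2 fold changes of 0.04 (interval -0.20 to 0.29) and -0.01 (-0.25 to 0.24). The groups overlapped for each of the 7 tested genes. Serpina5, encoding an inhibitor of activated protein C, had 10 and 1 counts with saline and 0 and 1 with baicalein.

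In fibrinolysis 0 of 8 genes passed with edgeR (2 at an unadjusted p below 0.05, 1 with DESeq2 and 0 with limma-voom). Plg, the precursor of plasmin, was at 2679 and 2646 CPM with saline and 3190 and 2690 CPM with baicalein (log2 fold change 0.14, interval -0.13 to 0.41, adjusted p = 0.479). Serpinf2, encoding the plasmin inhibitor antiplasmin, was at 1223 and 1221 CPM with saline and 1329 and 1096 CPM with baicalein (-0.01, interval -0.28 to 0.26). Cpb2, encoding a carboxypeptidase that protects fibrin from lysis, was at 373 and 417 CPM with saline and 335 and 295 CPM with baicalein. It did not overlap and did not pass (-0.33, SE 0.11, adjusted p = 0.0886), but did with DESeq2 (adjusted p = 0.0245).

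Several members of low level, 4 from fibrinolysis along with Thbd and Vwf, were far apart in the 2 baicalein livers, a contrast of 1 liver with 1 and without a test. Plaur, the receptor of urokinase, had 19 and 10 counts with saline, 3 in baicalein 1 and 63 in baicalein 2. Plat, encoding tissue plasminogen activator, had 29 and 23 counts with saline, 8 in baicalein 1 and 78 in baicalein 2. Anxa2, a docking protein for plasminogen and its activator, was at 20.1, 16.6, 17.3 and 40.8 CPM in saline 1, saline 2, baicalein 1 and baicalein 2. Thbd, encoding thrombomodulin, was at 6.94, 4.81, 6.40 and 12.4 CPM, and Vwf, encoding von Willebrand factor, at 16.2, 14.7, 11.3 and 19.8 CPM. In each of these genes baicalein 2 was the highest of the 4 livers. Plau, encoding urokinase, went another way, at 5.41, 2.19, 4.19 and 2.15 CPM. The adjusted p of these 6 genes ran from 0.320 to 0.984. Without baicalein 2 the log2 fold change of Plaur went from 0.87 to -2.12, that of Plat from 0.41 to -1.60 and that of Anxa2 from 0.67 to -0.08. Without baicalein 1, Anxa2 passed (1.14, adjusted p = 0.0121).

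Summed markers of smooth muscle and of bile duct were also highest in baicalein 2. Smooth muscle genes summed to 385 CPM there (190, 23.8 and 22.3 CPM in saline 1, saline 2 and baicalein 1) and bile duct genes to 137 CPM (71.9, 65.3 and 31.2 CPM). Skeletal muscle genes were highest in saline 1 instead, at 7212 CPM against 2504 CPM in baicalein 2. Stellate cell and fibroblast genes summed to 1204 CPM in baicalein 2 (835, 370 and 770 CPM in saline 1, saline 2 and baicalein 1). Endothelial genes summed to 1074 CPM in baicalein 1 and 1093 CPM in baicalein 2, and to 769 and 654 CPM with saline. Des is on the skeletal muscle, smooth muscle and stellate lists alike. Krt19, a bile duct keratin gene, was at 72.2 CPM in baicalein 2 and at most 2.29 CPM elsewhere. The high bile duct sum of baicalein 2 thus rested largely on this 1 gene. Of 6 tested bile duct genes 0 were higher and 2 lower with baicalein (33.3%, beside 15.5% of all tested genes). The part of these cells in the values of Plaur, Plat, Anxa2, Thbd and Vwf was not tested. Members of higher level had the opposite order: of 27 tested members at or above 10 FPKM, 26 were lower in baicalein 2 than in baicalein 1, where 53.1% of all genes were. Their ratios ran from 0.798 to 1.05. Among the 10 tested members below 10 FPKM, 8 were higher in baicalein 2, with ratios up to 15.2.

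**Figure D4:**
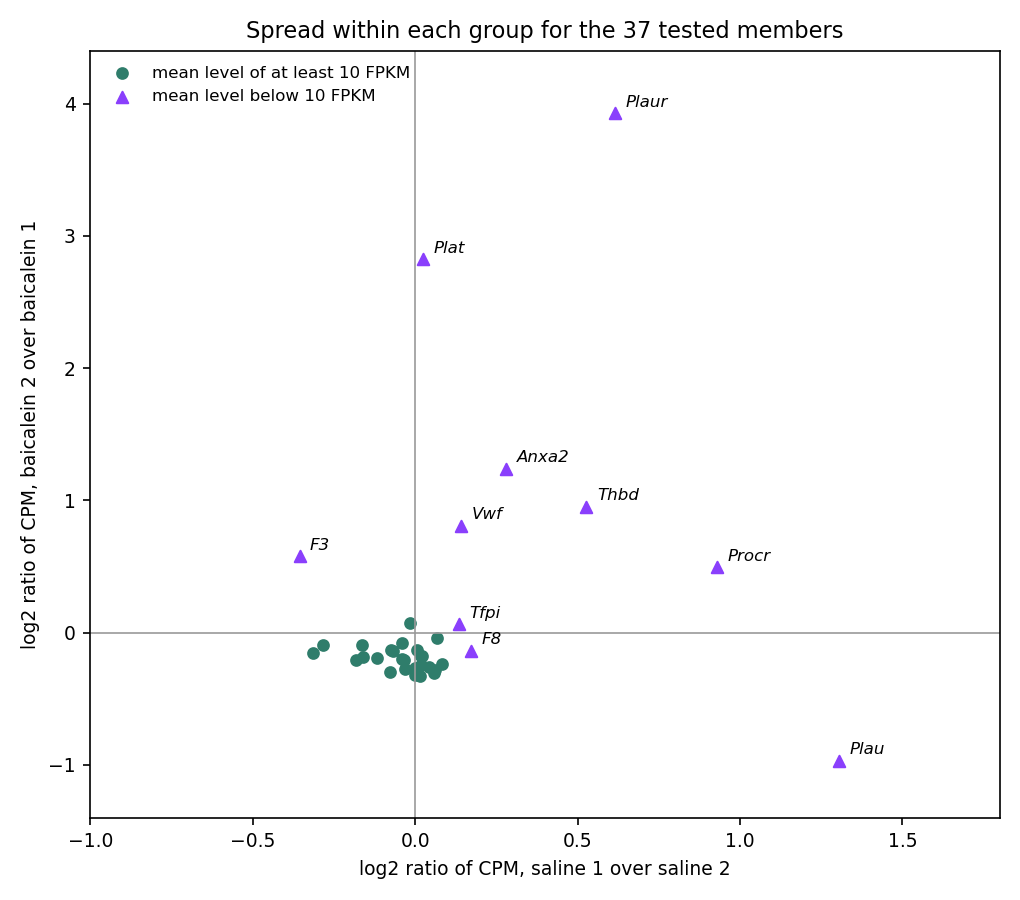
Spread between the 2 livers of each group for the 37 tested members: log2 ratio of CPM of saline 1 over saline 2 on the x axis and of baicalein 2 over baicalein 1 on the y axis. Green circles are members at or above 10 FPKM and purple triangles those below; the circles cluster just under 0 on the y axis, and Plaur, Plat, Anxa2, Thbd and Vwf lie above it.

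Of the genes that modify and ship clotting factors 0 of 3 tested passed with edgeR (0 at an unadjusted p below 0.05, 0 with DESeq2 and 0 with limma-voom). Ggcx, encoding the carboxylase that vitamin K-dependent factors need, was at 115 and 131 CPM with saline and 140 and 121 CPM with baicalein (log2 fold change 0.09, interval -0.17 to 0.34). Lman1 and Mcfd2 form the cargo receptor that carries factors V and VIII out of the endoplasmic reticulum. Their log2 fold changes were 0.02 (interval -0.22 to 0.26) and 0.09 (-0.14 to 0.33). Among 19 genes of protein secretion 3 were higher and 2 lower (26.3%, beside 15.5% of all tested genes). Vkorc1, which recycles vitamin K, was listed with 8 and 5 counts with saline and 1 and 4 with baicalein. Its transcripts share 50.5% of their 50-base words with Gm21974, which the table lists over the same region with 0 counts. The listed counts of Vkorc1 are therefore uncertain. Vkorc1l1, its paralogue, was at 63.3 to 75.3 CPM over the 4 livers. Of the 6 vitamin K-dependent members (F2, F7, F9, F10, Proc and Proz), F7 was higher and 5 did not pass. That is a share of 16.7%, beside 15.5% of all tested genes.

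Beyond the members, 32 of 35 other clotting and fibrinolysis genes were tested. With baicalein 3 were higher and 4 lower, and 25 did not pass, a share of 21.9% beside the 15.5% of all genes. The 4 of smallest p were Serpina1e, Tfpi2, Fgl1 and A2m. Serpina1e, a protease inhibitor gene of the antitrypsin family, was at 16602 and 15293 CPM with saline and 828 and 645 CPM with baicalein (log2 fold change -4.44, SE 0.16). Copies of this family are near-identical, so single members are uncertain. Tfpi2, encoding a protease inhibitor related to the tissue factor pathway inhibitor, fell (-0.53, SE 0.10), and Fgl1, a fibrinogen-like protein gene, rose (0.59, SE 0.13). A2m, a broad protease inhibitor gene, had 24 and 15 counts with saline and 0 and 2 with baicalein. Pros1, encoding the cofactor of protein C, had a log2 fold change of 0.03 (SE 0.10).

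Lists of liver function did not run in 1 direction either. Of 13 tested hepatocyte enzyme and plasma protein genes 5 were higher and 2 lower, a share of 53.8% beside 15.5% of all genes. Alb had a log2 fold change of 0.57 (SE 0.14). Of 14 hepatocyte transcription factors 2 were higher and 3 lower (35.7% in all), among the latter Cebpb (-0.83, SE 0.16) and Foxa3 (-0.72, SE 0.13). Hnf4a, which binds many clotting gene promoters, did not pass (log2 fold change 0.03, SE 0.11, adjusted p = 0.901). Of 6 tested neutrophil genes 1 was higher (16.7%), and of 6 tested bile duct genes 2 were lower (33.3%), beside 15.5% of all genes. Of 17 skeletal muscle genes and 6 smooth muscle genes tested, 0 passed with edgeR (0 at an unadjusted p below 0.05, 0 with DESeq2 and 0 with limma-voom), and the livers of each group were far apart.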

How the data were processed

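RNA was measured in 4 livers, 2 per treatment; per the labels' protocols the input was total RNA and the library kit a SMARTer mRNA kit. The authors deposited 1 table with a whole-number read count and an FPKM value for each gene and liver, per the file headers; the submitters' processing notes name mm10, and no source used here names an aligner or a counting tool. Deposited FPKM equalled the count over length and library total within 1% for all but 3 genes, none of them members. Columns were tied to livers by title, and groups came from the treatment labels.

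Counts were filtered (filterByExpr, 12657 of 21959 genes kept), scaled by TMM (factors of 0.963 to 1.07) and entered into edgeR 4.0.16 under R 4.3.3 (two-sided quasi-likelihood test, robust, treatment as the only term, Benjamini-Hochberg over all tested genes, threshold 0.05). The common biological coefficient of variation was 0.289. The SE is the log2 fold change over the root of the F statistic, and CPM use the scaled library sizes, so that 3 counts equal 0.150 to 0.219 CPM. The 2 livers of a group differed by more than sampling noise (chi-square per degree of freedom 24.8 for saline and 19.7 for baicalein). A permutation of 2 against 2 livers cannot pass 0.05. Alternatives were median-of-ratios size factors, DESeq2 1.42.0, limma-voom (limma 3.58.1), other filters, a replicate block and each liver left out; crosswise pairs as a block, and saline 2 with baicalein 1 alone, were added after seeing the data.

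Members, role groups and gene lists were chosen with earlier results of these data known. The rule named all members, and from each other list at most the 4 called genes of smallest p; Alb, C3, Pros1, Vkorc1l1, Hnf4a, Krt19, Ckm, Myl1 and Pvalb were named after their values were seen. Tf of the hepatocyte list was not used here. Without a stated strand setting, reads of overlapping antisense genes cannot be told apart. Words of 50 bases were compared between GENCODE M21 transcripts. Promoter windows were read in the gene's direction, and 30 of 31 held a transcript start of the gene.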

Additional observations from a re-analysis of the deposited data

How the results depend on the processing

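With 2 livers a group, 37 members tested and a common spread borrowed across genes, leaving out a liver leaves an arm with 1 sample, which is assumed to vary like the others. Median-of-ratios size factors, limma-voom, no filter and a mean CPM of at least 1 called the same 4 members, and no called member changed direction in any fit. DESeq2 called 6 members lower in place of 2 and the same 2 higher, and 864 of all genes higher and 964 lower. Without 1 liver, 0 to 6 members were higher and 1 to 5 lower, 521 to 665 of all genes were higher and 535 to 663 lower, and 0 to 3 of the other pathway genes were higher and 1 to 4 lower. The 6 higher members were F2, F7, Hrg, Kng1, Kng2 and Serpinc1, without baicalein 2; the 5 lower were F11, F2r and the fibrinogen chains, without baicalein 1. With the replicate number as a block, 1 member was higher (F7 was lost, adjusted p = 0.0812) and 2 lower, 531 of all genes were higher and 601 lower, and 0 of the other pathway genes were higher and 2 lower. Same-numbered livers deviated from their group means in opposite ways (correlation -0.771), and crosswise livers had the same value with the sign reversed (0.771). With 2 livers a group, this value cannot tell whether the replicate numbers mark pairs, and the labels name no pairing. With crosswise pairs, chosen after seeing the data, 3 members were higher and 4 lower, 1809 of all genes higher and 1689 lower, and 6 of the other pathway genes higher and 7 lower. The cause of these changes was not tested. Of the 10 tested members below 10 FPKM 1 had an interval within a 1.5-fold change, against 23 of 27 above. Tfpi, within it, had 582 counts in all, and Anxa2, outside it, 1637, so counts alone do not order these intervals.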
